A study of Saccharomyces cerevisiae with 95 samples.

Results

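The sites described here were the intervals over retrotransposons of the budding yeast genome and over the long terminal repeats (LTRs) that such elements leave behind. An interval was a member if it overlapped a mobile genetic element or an LTR of the R64 annotation (the sacCer3 build) by at least 1 bp, lay more than 20 kb from a chromosome end and did not lie over a tRNA gene. By that rule 1049 of the 20232 intervals of the 5 factors were members, namely 287 of 4385 TBP sites, 227 of 3685 TFIIA sites, 215 of 4033 TFIIB sites, 156 of 4473 TFIIE sites and 164 of 3656 TFIIF sites. Of these, 866 overlapped a full-length element (called full Ty sites here) and 183 overlapped only an LTR that stands outside any full element (solo LTR sites). A further 295 intervals over these features were set aside because they touched a tRNA gene and 33 because they lay near a chromosome end. Merged over the factors, the members formed 298 loci, of which 64 full Ty loci and 7 solo LTR loci held a site for each of the 5 factors.

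Ty elements are retrotransposons that copy themselves through RNA, much as retroviruses do. Each carries the same LTR at both ends, and the promoter for RNA polymerase II lies in the 5′ LTR and the sequence just inside it, while the 3′ LTR provides the end of the transcript. A solo LTR is what recombination between the LTRs of an element leaves, and it can drift in sequence until it is unique in the genome. Ty1 and Ty3 insert next to genes transcribed by RNA polymerase III, which also uses TBP, and in yeast Ty1 is transcribed less in a/α diploid cells than in haploid cells.

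In this competition ChIP experiment every group was a diploid W303 strain with a Myc-tagged copy of a general transcription factor under its own promoter and an HA-tagged copy under the GAL1 promoter. Cells were grown in raffinose and galactose was added at 0 min, so that the HA copy appeared and competed with the Myc copy. Both tags were immunoprecipitated at 8 time points, namely 10, 20, 25 and 30 min, then 40 and 60 min, and last 90 and 120 min, with 1 library per factor, tag and time point, and the tagged subunits were Toa1 for TFIIA, Tfa1 for TFIIE and Tfg2 for TFIIF. Total counts in sites ran from 2740185 to 19483568 per library. With no replicate library, each trend has as its error how far single time points lay from it, and p-values measure nothing else. Since ChIP averages over cells, a factor on few copies in all cells and on many copies in few cells cannot be told apart.

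The LTR sequences show why reads over these sites cannot all be given to 1 place. The first 300 bases of 5 LTRs and the whole of a shorter one are printed 5′ to 3′ on the strand of the element, from the R64 RefSeq reference, with TATAAA and its reverse complement TTTATA in capitals. The 5′ LTR of YOLWTy1-1 (chrXV:117703-118040, plus strand), shown from base 117703 to 118002, carried the full Ty site with the highest TBP and TFIIF Myc level. The 3′ LTR of YGRWTy1-1 (chrVII:541348-541685, plus strand), shown to base 541647, carried the highest TFIIB site of a full element. The 5′ LTR of YCLWTy2-1 (chrIII:84811-85142, plus strand), shown to base 85110, is the Ty2 example. The solo LTR at chrXI:314193-314524 (plus strand, shown to base 314492), the solo Ty4 LTR at chrV:118230-118551 (minus strand, shown from base 118551 down to 118252) and the solo LTR at chrIV:668543-668784 (plus strand) belong to the solo loci with the highest mean Myc level among those with a site for all 5 factors.
YOLWTy1-1 5′ LTR: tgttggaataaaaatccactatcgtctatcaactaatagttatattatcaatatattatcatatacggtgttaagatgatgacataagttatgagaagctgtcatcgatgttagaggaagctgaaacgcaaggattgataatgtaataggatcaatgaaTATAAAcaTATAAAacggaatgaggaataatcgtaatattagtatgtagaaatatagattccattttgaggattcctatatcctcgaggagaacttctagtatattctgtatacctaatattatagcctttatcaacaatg
YGRWTy1-1 3′ LTR: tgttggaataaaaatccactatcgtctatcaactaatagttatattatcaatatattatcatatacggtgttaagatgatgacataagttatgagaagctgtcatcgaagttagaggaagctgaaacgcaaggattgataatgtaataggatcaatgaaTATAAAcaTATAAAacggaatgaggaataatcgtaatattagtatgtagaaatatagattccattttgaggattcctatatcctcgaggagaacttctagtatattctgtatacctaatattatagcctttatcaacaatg
YCLWTy2-1 5′ LTR: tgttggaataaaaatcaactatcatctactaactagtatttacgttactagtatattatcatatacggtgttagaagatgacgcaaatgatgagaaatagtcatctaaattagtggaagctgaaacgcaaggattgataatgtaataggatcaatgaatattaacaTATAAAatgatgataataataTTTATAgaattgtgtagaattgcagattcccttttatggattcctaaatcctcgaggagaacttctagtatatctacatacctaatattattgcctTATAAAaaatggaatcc
Solo Ty1 LTR of chromosome XI: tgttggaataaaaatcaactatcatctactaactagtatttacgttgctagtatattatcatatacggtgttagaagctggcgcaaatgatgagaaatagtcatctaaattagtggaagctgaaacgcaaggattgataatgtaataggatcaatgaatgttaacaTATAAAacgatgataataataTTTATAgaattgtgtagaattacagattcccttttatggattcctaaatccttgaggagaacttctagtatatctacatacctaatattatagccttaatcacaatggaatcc
Solo Ty4 LTR of chromosome V: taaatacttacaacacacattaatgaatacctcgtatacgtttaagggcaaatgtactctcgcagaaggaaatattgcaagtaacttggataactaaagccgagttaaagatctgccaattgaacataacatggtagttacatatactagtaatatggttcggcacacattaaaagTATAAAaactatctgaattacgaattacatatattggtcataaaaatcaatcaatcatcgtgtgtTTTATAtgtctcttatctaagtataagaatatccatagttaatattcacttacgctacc
Solo Ty1 LTR of chromosome IV: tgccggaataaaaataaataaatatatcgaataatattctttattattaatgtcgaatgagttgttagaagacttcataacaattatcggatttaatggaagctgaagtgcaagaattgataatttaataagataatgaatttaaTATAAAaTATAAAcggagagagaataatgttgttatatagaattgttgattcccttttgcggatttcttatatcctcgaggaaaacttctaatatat

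Over their whole lengths, the YGRWTy1-1 LTR was 97.9% identical to that of YOLWTy1-1, the YCLWTy2-1 LTR 81.9%, the solo LTR of chromosome XI 81.4% and the solo LTR of chromosome IV 56.1%. The solo LTR of chromosome XI, annotated as Ty1, was closer to the Ty2 LTR, at 94.9%. TATAAA stood at base 160 of both full Ty1 LTRs, followed by a second copy, and at base 167 of the Ty2 LTR. On the element strand it was present within the first 300 bases of 45 of the 50 annotated elements, including 31 of 31 Ty1 and 12 of 13 Ty2. Counted on both strands in the 300 bases about the centre of each site, it was present at 94.9% of 178 full Ty sites that reach the 3′ LTR, 63.0% of 165 that reach the 5′ LTR and 13.5% of 518 internal ones. The shares were 78.1% of 183 solo LTR sites and 43.0% of all 20003 nuclear sites counted. These are matches of letters, not binding sites.

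Nearly all full Ty sites were repeated sequence. In 858 of 866, over 50% of the 50-base windows occurred more than once in the reference, and in 736 every window did. The median window had 27 copies over full Ty sites, with 28 in Ty1, 13 in Ty2, 3 in Ty4 and 2 in Ty3. Solo LTR sites divided into 85 multi-copy sites by the same measure and 98 single-copy sites, of which 62 held no repeated window. Windows of 36 bases gave 858 and 86. The authors' aligner in its default mode puts a read that fits several copies equally well on one of them, so a value at a repeated site is close to an average over the copies, and neighbouring elements are not independent measurements. The W303 strain may also carry other insertions than the reference, which was not tested. 

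The share of full Ty sites inside the element differed between factors. For TBP 193 of 254 full Ty sites were internal, touching neither LTR, for TFIIA 131 of 197 and for TFIIB 100 of 177, against 58 of 132 for TFIIF and 36 of 106 for TFIIE. Of the TFIIE sites, 33 reached the 5′ LTR and 35 the 3′ LTR. No TFIIE site of Ty1 or Ty2 had its centre from 1500 to 4500 bp inside the element, where TBP had 112, TFIIA 80, TFIIB 76 and TFIIF 16. Over all factors 5 full Ty sites were in none of these parts. Solo LTR sites were closer to tRNA genes, at a median distance of 483 bp against 3987.5 bp for full Ty sites. A gene start outside the elements was counted where the site's centre lay from 250 bp upstream to 100 bp downstream of it. Such a start was counted at 83 of 183 solo LTR sites against 18 of 866 full Ty sites.

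The Myc-tagged factor, the copy present before galactose, was lower at full Ty sites than at the typical site for TBP, TFIIA and TFIIB. The level of a site was log2 of its counts per bp over those of the median nuclear site outside rDNA in the same library, so 0 is the typical site. Averaged over the 8 time points, the median Myc level of full Ty sites was -0.70 ± 0.14 (SD, n = 8 time points) in the TBP libraries, -0.55 ± 0.20 in those of TFIIA and -1.89 ± 0.16 in those of TFIIB. It was -0.16 ± 0.30 for TFIIE and -0.10 ± 0.29 for TFIIF, where the spread between time points was larger than the distance from 0. Solo LTR sites were nearer the typical site for TBP, TFIIA and TFIIB and about as far from it for TFIIE and TFIIF. There the TBP level was 0.14 ± 0.07, the TFIIA level -0.09 ± 0.08, the TFIIB level -0.41 ± 0.32, the TFIIE level -0.16 ± 0.30 and the TFIIF level 0.11 ± 0.22. The single-copy solo sites taken alone lay at 0.23 ± 0.10, 0.06 ± 0.05, 0.17 ± 0.12, -0.04 ± 0.09 and 0.10 ± 0.06 in the same order.

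**Figure D1:**
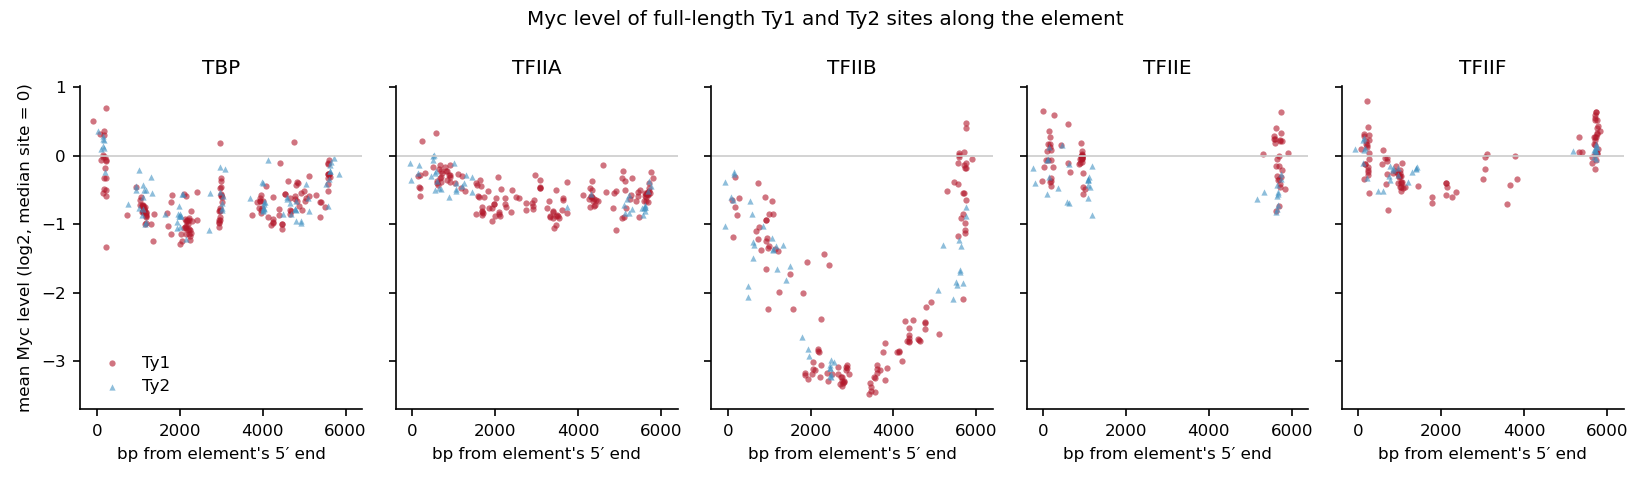
Mean Myc level of each full Ty1 (circles) and Ty2 (triangles) site against the distance of its centre from the 5′ end of the element in bp, one panel per factor. Level is log2 of counts per bp over the median nuclear site, averaged over 8 time points. TFIIB falls to -3.49 in the middle of the elements, whereas the lowest TBP and TFIIA sites lie at -1.33 and -1.09.

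Along Ty1 and Ty2 the Myc level was higher at the ends than in the middle for the 4 factors with sites in the middle, and the difference was largest for TFIIB, the factor that bridges TBP and the polymerase. For TFIIB the median was -0.65 for the 14 sites centred within 500 bp of the 5′ end, -1.26 for 33 sites from 500 to 1500 bp, -3.10 for 76 sites from 1500 to 4500 bp, -2.44 for 12 sites from 4500 to 5400 bp and -0.70 for 34 sites beyond. The 76 middle sites ranged from -3.49 to -1.43. For TBP the same 5 stretches had medians of -0.02, -0.78, -0.83, -0.64 and -0.27, with 27, 44, 112, 39 and 22 sites. For TFIIA they were -0.27, -0.32, -0.69, -0.60 and -0.57. For TFIIF the first stretch lay at 0.09, the second at -0.28, the middle at -0.42 over 16 sites, all in Ty1, and the last at 0.14. For TFIIE the 5′ end lay at -0.06, the second stretch at -0.13 and the 3′ end at -0.28. Reads from the 5′ LTR and the 3′ LTR of 1 element fit both, so the levels at the ends share reads.

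At 10 min HA/Myc over full Ty sites was above that of the typical site, for all 5 factors. Each site's log2 HA/Myc was its HA level minus its Myc level at the same time, so 0 means that the tags stood alike relative to the typical site. At 10 min the median HA level of full Ty sites was below 0 for TBP (-0.34) and TFIIB (-0.25). Their Myc levels then were -0.81 and -2.08. For TFIIA, TFIIE and TFIIF the HA level was 0.49, 0.10 and 0.73, beside Myc levels of -0.72, -0.50 and -0.77. The study's Western blots put the mean induction half-time of the HA copy well beyond 10 min. How much of the 10 min HA signal was bound factor was not tested. For TBP the median over 254 full Ty sites was 0.45 at 10 min, then -0.25, -0.34, -0.29, -0.56, -0.55, -0.36 and -0.41 at 120 min. For TFIIA, over 197 sites, it was 1.33, 1.2, 0.80, 1.13, 1.09, 0.73, 0.31 and 0.61. These values stayed above 0 throughout, while those of TBP crossed it after the first time point.

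For TFIIB, over 177 sites, the medians were 1.79 at 10 min, then 1.09, 0.73, 0.95, 0.91, 0.85, 0.69 and 0.59. For TFIIE, over 106 sites, they were 0.65, 0.24, 0.24, -0.05, -0.34, -0.45, -0.41 and -0.40. For TFIIF, over 132 sites, they were 1.44, 0.50, 0.28, 0.32, -0.09, 0.04, -0.34 and -0.11. The 10 min medians correspond to an HA/Myc of 1.36-fold the typical site (TBP), 2.51-fold (TFIIA), 3.47-fold (TFIIB), 1.57-fold (TFIIE) and 2.70-fold (TFIIF). At 10 min 238 of 254, 197 of 197, 177 of 177, 85 of 106 and 132 of 132 full Ty sites were above 0.

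**Figure D2:**
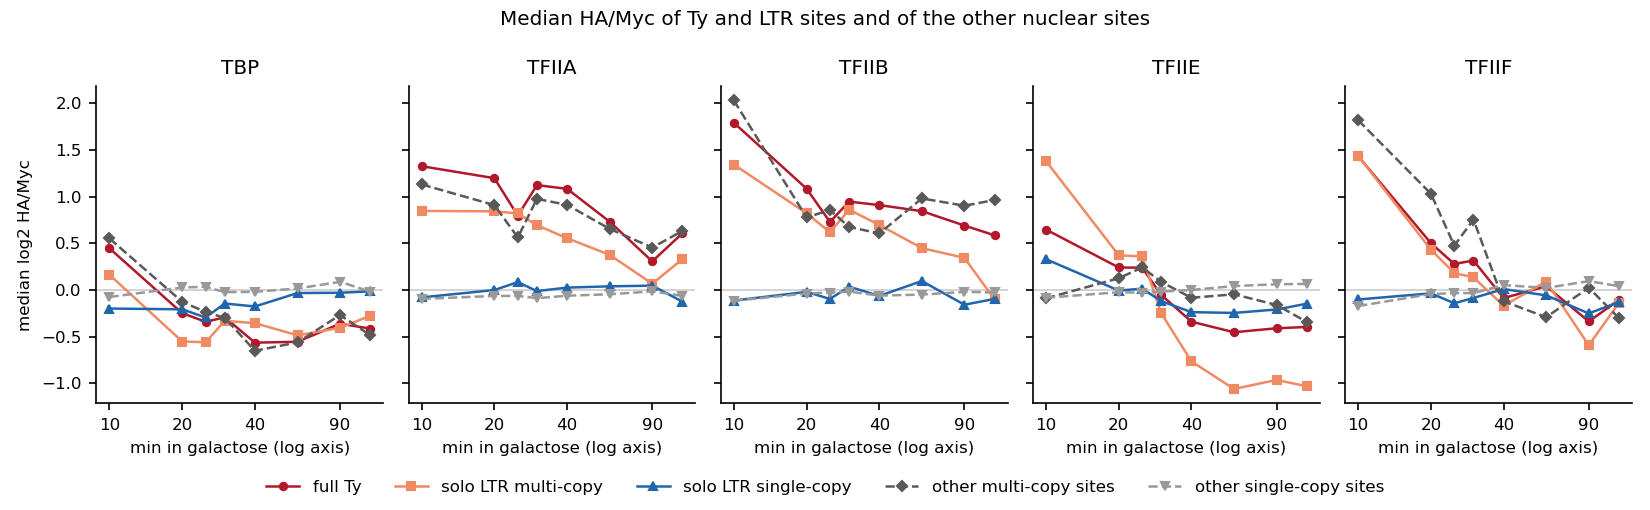
Median log2 HA/Myc against time in galactose in min (log axis), one panel per factor, for full Ty sites, multi-copy and single-copy solo LTR sites and the remaining multi-copy and single-copy nuclear sites. Full Ty and multi-copy solo sites start above 0 in every panel (lowest 0.16, TBP) and decline, and single-copy solo sites start between -0.20 and 0.33.

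Among solo LTR sites the multi-copy ones followed this course, and the single-copy ones stayed near 0 in 4 factors and moved less in TFIIE. The 22 multi-copy solo sites of TFIIB had a median of 1.35 at 10 min and -0.10 at 120 min, while the 16 single-copy ones had -0.11 and -0.09. For TFIIF the 18 multi-copy sites went from 1.44 to -0.14 and the 14 single-copy sites from -0.10 to -0.13, and for TFIIA the 12 and 18 sites went from 0.85 to 0.33 and from -0.08 to -0.12. For TFIIE the 22 multi-copy sites went from 1.38 to -1.03, further than full Ty sites, and the 28 single-copy sites from 0.33 to -0.15. For TBP the values were 0.16 and -0.27 for 11 sites against -0.20 and -0.01 for 22. These are descriptions of groups of sites, and the difference between the groups was not tested.

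Repeated sequence outside Ty elements and LTRs showed a like start in 4 factors. These 588 multi-copy sites, of which 468 lay within 20 kb of a chromosome end, had a 10 min median of 0.55 for TBP, 1.13 for TFIIA, 2.03 for TFIIB and 1.82 for TFIIF, but -0.09 for TFIIE. The remaining single-copy sites were between -0.17 and -0.07 at 10 min. The spread between sites moved as well. The SD of level over all nuclear sites was 0.49 in the TBP HA library at 10 min against 0.90 at 120 min, and 0.50 against 0.92 for TFIIB, while for TFIIE Myc it went from 0.66 down to 0.31. For TFIIF HA, 2 libraries (10 and 25 min) had over 50% of their counts at mitochondrial sites. The part of repeated sequence, of this spread and of these libraries in the result was not tested.

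**Figure D3:**
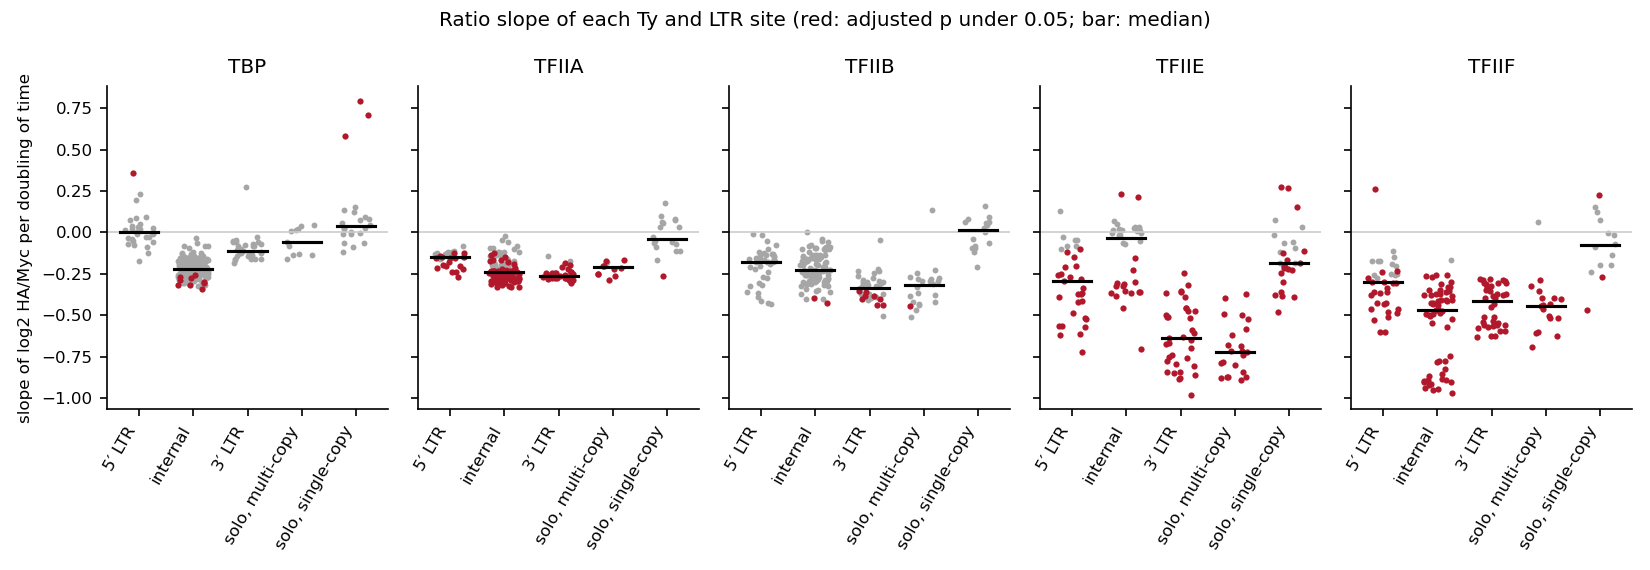
Ratio slope of every Ty and LTR site (log2 HA/Myc per doubling of time) by part of the full element or kind of solo LTR, one panel per factor. Red points passed an adjusted p of 0.05 (edgeR), black bars are medians, and all 38 TFIIF and all 35 TFIIE sites at the 3′ LTR are red and below 0.

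The fitted trends gave the same direction. The ratio slope is the change of log2 HA/Myc per doubling of time in edgeR's quasi-likelihood fit over the 16 libraries of a factor, with p-values adjusted by Benjamini-Hochberg over all sites of that factor and called below 0.05. For TFIIF 118 of 132 full Ty sites fell and 1 rose, and 19 of 32 solo LTR sites fell and 1 rose, while over all sites 17.1% fell and 19.4% rose. For TFIIA 133 of 197 full Ty sites and 11 of 30 solo LTR sites fell and 0 rose, against 9.44% falling and 7.6% rising of all sites. At an unadjusted p of 0.05, 203 of the 227 TFIIA members passed in either direction, and DESeq2 called 186 falling and 1 rising. Over all 3685 TFIIA sites DESeq2 called 458 falling and 400 rising. For TFIIE 78 of 106 full Ty and 38 of 50 solo LTR sites fell and 2 and 3 rose, against 30.9% and 29.4% of all sites.

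TBP and TFIIB gave few calls. For TBP 9 full Ty sites fell, 1 full Ty site and 3 solo LTR sites rose, and 274 of 287 members were not called, with 1.25% of all sites falling and 6.64% rising. For TFIIB 10 full Ty sites and 1 solo LTR site fell and 0 rose, against 0.545% and 0.669% of all sites. DESeq2 called 81 falling for TBP and 48 falling and 0 rising for TFIIB, and 100 of the 215 TFIIB members passed an unadjusted 0.05. Over all sites DESeq2 called 257 of 4385 falling for TBP, and 93 falling and 87 rising of 4033 for TFIIB. The median slopes of full Ty sites were nevertheless all below 0, with TBP at -0.19, TFIIA and TFIIB at -0.24, TFIIE at -0.36 and TFIIF at -0.41, beside medians over all sites between -0.02 and 0.01. Solo LTR sites had medians of 0.02, -0.11, -0.26, -0.37 and -0.34.

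These counts depended on scaling and on single time points. When each library was scaled to its total count instead, the median slope of all sites moved to 0.51 for TFIIF and -0.15 for TBP, members divided into 12 rising and 12 falling for TFIIF (2 and 137 as fitted) and 4 rising and 213 falling for TBP (4 and 9 as fitted), and the median full Ty slope of TFIIF became 0.11. Over all sites that scaling called 2660 rising and 64 falling of 3656 for TFIIF, and 248 rising and 990 falling of 4385 for TBP. Relative to all sites the median full Ty slope stayed lower in both. Leaving out a time point changed the number of falling TFIIA members from 144 to 42 without 10 min, 66 without 20 min, 83 without 60 min and 41 without 90 min, and that of TFIIF from 137 to 64 without 10 min. Calls over all sites moved as well. For TFIIA they went from 348 falling to 94, 170, 195 and 111 in the same order, and for TFIIF from 627 to 304. Without 10 and 25 min together, an alternative chosen after seeing the data, 42 TFIIF members fell, beside 218 of all sites. The 9 falling TBP members became 0 without 10 or 60 min, 5 without 30 min, 14 without 20 min, 16 without 25 min, 39 without 90 min and 106 without 120 min, and the 4 rising became 1 without 10 min and 7 without 120 min. The 11 of TFIIB became 23 without 10 min, 3 without 20 min and 0 without 90 or 120 min. Over all sites the falling TBP calls went from 55 to 0 without 10 min, 29 without 60 min and 431 without 120 min. Those of TFIIB went from 22 to 92 without 10 min, 8 without 90 min and 11 without 120 min. For TFIIE the number of falling members stayed between 107 and 117, and that of all sites between 1087 and 1368.

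The share of sites that fell differed between parts of the element and between factors. At the 3′ LTR, 35 of 35 TFIIE sites, 38 of 38 TFIIF sites and 33 of 35 TFIIA sites fell, with median slopes of -0.64, -0.42 and -0.26. At the 5′ LTR 26 of 33, 23 of 36 and 17 of 29 fell, with medians of -0.29, -0.30 and -0.15. Of all sites 30.9% fell for TFIIE, 17.1% for TFIIF and 9.44% for TFIIA. LTR copies share reads, between elements and between both ends of an element. The counts are therefore not of independent sites, and the ends are not fully separated. Internal sites of TFIIE, pooled over families, stood apart from its LTR sites, with 15 of 36 falling, 2 rising and a median of -0.03. The families differed among TFIIE sites centred from 500 to 1500 bp. There 12 of 12 Ty2 sites fell, with a median slope of -0.32, against 2 of 23 Ty1 sites, with 0.01. In TFIIF, by contrast, the 16 sites in the middle stretch, 1500 to 4500 bp inside Ty1, all fell with a median slope of -0.89. Their median log2 HA/Myc went from 2.56 at 10 min to -0.57 at 120 min. No TFIIF site of Ty2 was centred there. All 9 falling TBP sites of full elements were in that middle stretch as well. The TFIIB ratio in the middle stretch was 2.66 at 10 min and 1.44 at 120 min, and 2 of all 100 internal TFIIB sites fell. The median TFIIB HA level in that stretch was below the typical site at both times, -0.31 and -1.84. The median Myc level there was -3.10.

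**Figure D4:**
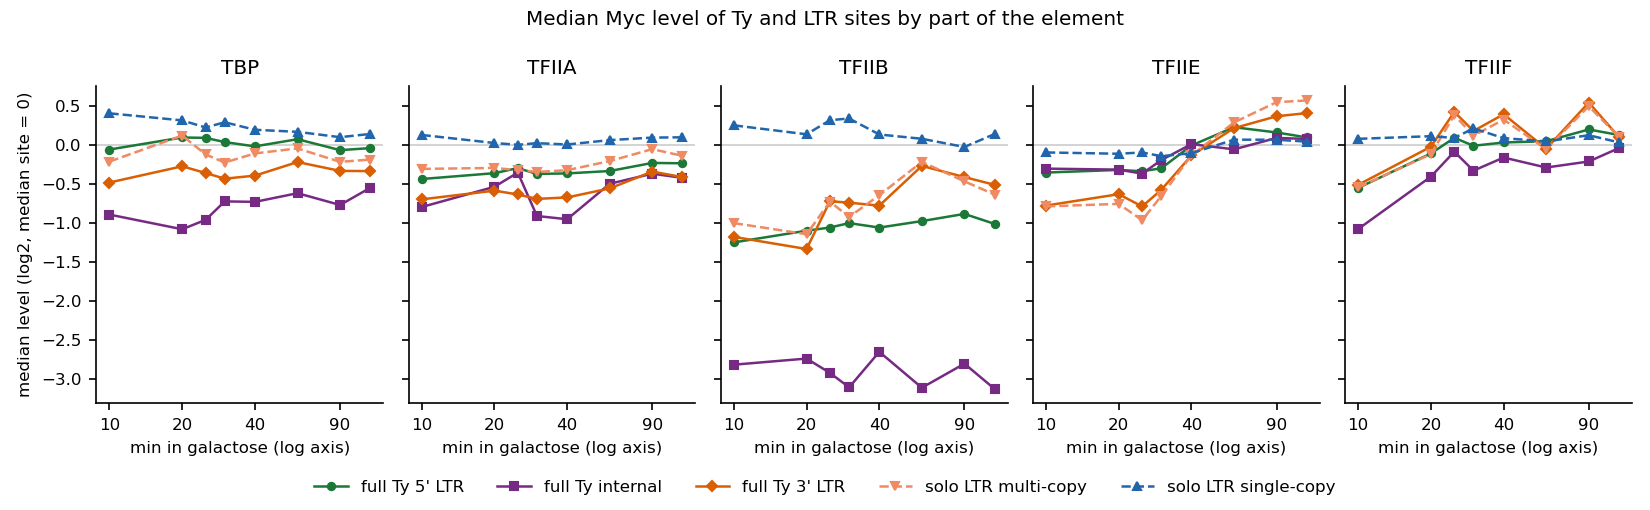
Median Myc level (log2, typical site at 0) against time in galactose in min (log axis) for sites at the 5′ LTR, inside and at the 3′ LTR of full elements and for multi-copy and single-copy solo LTR sites, one panel per factor. TFIIE multi-copy solo sites go from -0.78 at 10 min to 0.57 at 120 min, and internal TFIIB sites stay between -3.12 and -2.65.

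Over time, the Myc copy of TFIIE rose over Ty elements relative to the typical site. TFIIE is the factor that recruits and steers TFIIH. In edgeR's fit of Myc counts alone on log2(time), 94 of 106 full Ty and 35 of 50 solo LTR sites of TFIIE rose, and 0 and 4 fell, against 30.9% rising and 29.4% falling of all TFIIE sites. DESeq2 called 97 of the full Ty sites rising and 1 falling, and 1454 rising and 1533 falling of all 4473 TFIIE sites. The median Myc level of full Ty sites was -0.50 at 10 min, -0.41 at 20 min, -0.05 at 40 min, 0.04 at 60 min and 0.21 at 120 min. Rises were called at 35 of 35 sites at the 3′ LTR and 22 of 22 multi-copy solo sites. In the same libraries the SD of level over all nuclear sites went from 0.66 at 10 min to 0.31 at 120 min. Its part in the rise was not tested.

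TFIIB Myc rose at the LTRs and not inside. There 36 full Ty and 11 solo LTR sites rose and 2 solo sites fell, against 10.8% and 9.37% of all sites. Of the 36, 22 reached the 3′ LTR and 13 the 5′ LTR, out of 37 and 39, and 1 of 100 internal sites rose. The 47 rising members became 15 without 10 min and 27 without 20 min, while rising calls over all sites went from 436 to 164 and 262. For TBP, TFIIA and TFIIF 0 members passed in edgeR's Myc fit, where 0.502%, 0.217% and 0.711% of all sites rose and 1.76%, 0.19% and 0.0547% fell. At an unadjusted p of 0.05, 40, 41 and 88 members passed, and DESeq2 called 5 rising and 2 falling, 4 rising and 0 falling, and 45 rising and 0 falling. Over all sites DESeq2 called 149 rising and 243 falling of 4385 for TBP. It called 41 and 59 of 3685 for TFIIA and 173 and 80 of 3656 for TFIIF. For TBP 735 of all 4385 sites passed the unadjusted 0.05.

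Among named sites, the largest falls for TFIIF were inside Ty1 elements. The site at chrXVI:806783-807037, in YPRCTy1-2 at 3652 bp from its 5′ end, had HA counts of 198, 627, 231, 565, 507, 431, 468 and 521 over the 8 time points and Myc counts of 162, 408, 534, 335, 450, 636, 399 and 643. Scaled by the typical site, log2 HA/Myc was 3.13 at 10 min, 1.13 at 20 min, -0.16 at 40 min and -0.47 at 120 min. Its slope was -0.97 ± 0.14 (SE, 16 libraries, adjusted p = 8e-05). The site at chrXV:120656-120877 in YOLWTy1-1 fell by 0.95 ± 0.11 (adjusted p = 3.7e-05), from 2.64 to -0.72.

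For TFIIE the largest falls were at LTRs. The 3′ LTR site of YBRWTy1-2 (chrII:265080-265304) had 568 HA counts at 10 min and 319 at 120 min, and 397 and 724 Myc counts. Its log2 HA/Myc was 1.51, 0.52, 0.66, -0.22, -1.11, -1.45, -1.34 and -1.65 in order of time, with a slope of -0.98 ± 0.11 (adjusted p = 2.7e-05). The solo LTR site at chrV:62164-62371 went from 1.63 to -1.12, with a slope of -0.89 ± 0.12 (adjusted p = 0.00013). At both sites the Myc slope was positive, at 0.65 ± 0.10 and 0.63 ± 0.09 (adjusted p = 0.00062 and 0.00051).

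For TFIIB the largest falls were the solo LTR site at chrXII:215083-215502, with log2 HA/Myc of 1.25 at 10 min against -0.48 at 120 min, and the 3′ LTR site of YPRCTy1-4 (chrXVI:850645-851126), which went from 1.13 to -0.48. Their slopes were -0.45 ± 0.09 and -0.44 ± 0.09, both with an adjusted p of 0.020. Neither was called without 90 min, without 120 min or when the time point was not fitted as a block, where 0 TFIIB members fell. For TFIIA the largest falls were internal sites of YNLWTy1-2 (chrXIV:524320-524529) and YMLWTy1-1 (chrXIII:189131-189347), with slopes of -0.33 ± 0.07 and -0.33 ± 0.08 (adjusted p = 0.0083 and 0.018), from 1.65 to 0.54 and from 1.58 to 0.62. For TBP they were internal sites of YCLWTy2-1 (chrIII:87729-87940) and YERCTy1-1 (chrV:446831-447283), with slopes of -0.34 ± 0.10 and -0.32 ± 0.08 (adjusted p = 0.043 and 0.023). The TBP falls rest on the first time point, since without it the slopes were -0.18 and -0.16 with adjusted p = 0.87 and 0.79.

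The members whose ratio rose lay mostly at single-copy flanks. The largest TBP rises were at solo LTRs beside genes for small RNAs made by RNA polymerase III. The site at chrXII:365711-366501, with its centre 129 bp upstream of SNR6, the U6 spliceosomal RNA gene, had HA counts of 2381, 7322, 10012, 11140, 17185, 19201, 30219 and 30022 and Myc counts between 11738 and 22142. Its log2 HA/Myc was -2.57 at 10 min, 0.45 at 90 min and 0.04 at 120 min, with a slope of 0.80 ± 0.13 (adjusted p = 0.00065). The site at chrV:431008-431906, centred 237 bp upstream of SNR52, a guide RNA gene for ribosomal RNA methylation, rose from -2.38 to -0.14, with a slope of 0.71 ± 0.14 (adjusted p = 0.0019), and had the highest TBP Myc level of any solo LTR site, 3.15 ± 0.30 (SD, n = 8 time points). Only 42.4% and 37.0% of these intervals lay inside the LTR.

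An offset was also fitted to the mean log2 count of the site (a loess curve), not to its level per bp. It takes out any trend shared by sites of like count. With it the SNR6 site had a slope of 0.12 (adjusted p = 0.28) and the SNR52 site -0.11 (adjusted p = 0.34). Without 10 min the adjusted p was 0.056 and 0.14. The largest of the 5 TFIIE rises were the site at chrXII:657735-658947, 0.27 ± 0.04 (adjusted p = 0.00017), and that at chrXV:968420-969298 over a solo Ty3 LTR, 0.27 ± 0.05 (adjusted p = 0.0011). Both had negative slopes with the loess offset, -0.05 and -0.04, neither called. For TFIIF they were a 5′ LTR flank of YLRWTy2-1 (chrXII:940859-941350), 0.26 ± 0.08 (adjusted p = 0.019), where HA counts went from 167 to 3507 and Myc counts from 1089 to 1488, and the solo LTR site by YNK1 (chrXI:314396-314871), 0.22 ± 0.08 (adjusted p = 0.040). With the loess offset these were 0.04 and 0.05, neither called, and the YNK1 value was 0.19 without 10 min (adjusted p = 0.20).

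The loci with a site for every factor and the highest mean Myc level allow the factors to be set side by side, though not always over the same bases. At the start of YOLWTy1-1 the Myc level was 0.70 ± 0.16 for TBP (chrXV:117725-118130), 0.32 ± 0.08 for TFIIA, 0.45 ± 0.10 for TFIIE and 0.80 ± 0.24 for TFIIF. The TFIIB site with the highest level in that locus was at the 3′ LTR instead, at -0.05 ± 0.23. None of these had a called ratio slope, with values from -0.19 to -0.01. At the 3′ LTR of YJRWTy1-2 (chrX, near base 483654) the ratio fell for TFIIA by 0.25 ± 0.04 (adjusted p = 0.0044), for TFIIE by 0.31 ± 0.05 (adjusted p = 0.00023) and for TFIIF by 0.33 ± 0.09 (adjusted p = 0.011), with -0.06 ± 0.08 for TBP and -0.30 ± 0.08 for TFIIB (adjusted p = 0.73 and 0.074). The TFIIF value became 0.20 when libraries were scaled to their totals and -0.15 without 10 min, neither called.

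The remaining locus counted as full Ty, on chromosome VII, was so only through its TFIIE site, which reached YGRWTy1-1, while the sites of the other 4 factors overlapped just the solo LTR before that element. Its Myc level was 1.45 ± 0.26 for TFIIB and 0.66 ± 0.22 for TFIIE, 0.62 ± 0.14 for TFIIA, 0.32 ± 0.12 for TBP and 0.16 ± 0.35 for TFIIF. The ratio slope was called for TFIIF alone, -0.43 ± 0.12 (adjusted p = 0.0086), whose interval of 220 bp lay wholly in repeated LTR sequence, whereas those of the other 4 were 882 to 2582 bp and reached single-copy sequence. Scaled to total counts it was 0.08, not called, and without 10 min it was -0.17, not called.

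The 3 solo LTR loci were beside YNK1, which encodes nucleoside diphosphate kinase, beside RPR1, the RNA of RNase P, and on chromosome IV near base 668543. By YNK1 the Myc level of TBP was 0.42 ± 0.18, that of TFIIA 0.44 ± 0.12, that of TFIIB 1.51 ± 0.18, that of TFIIE 0.79 ± 0.38 and that of TFIIF 0.26 ± 0.20, and the ratio slopes of the first 4 were 0.13, 0.10, 0.02 and 0.07, none called. Only 19.6% (TFIIA) to 41.7% (TBP) of the YNK1 intervals lay inside the LTR. At the single-copy Ty4 LTR by RPR1 the TBP interval was 1725 bp long, and only 18.7% of it lay inside the LTR. This interval had a TBP Myc level of 1.73 ± 0.35 and a ratio slope of 0.59 ± 0.14 (adjusted p = 0.011). The slope was -0.16 under the loess offset and 0.42 without 10 min (adjusted p = 0.43), neither called. At the same locus the TFIIE ratio fell by 0.17 ± 0.04 (adjusted p = 0.0024), and the slopes of TFIIA, TFIIB and TFIIF were 0.04, -0.12 and -0.20, none called. On chromosome IV, where the TFIIB and TFIIF sites lay on a Ty3 LTR beside the Ty1 LTR printed above, the Myc level was highest for TFIIB, 1.30 ± 0.29, and no factor had a called ratio slope.

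Ty3, which has 2 full elements in the reference, was looked at after its values were seen because each factor had a site inside it at about the same place. The centres lay between 2016 and 2257 bp from the 5′ end in YILWTy3-1 (chromosome IX) and YGRWTy3-1 (chromosome VII). The Myc level of the YILWTy3-1 site was 0.48 for TFIIA and 0.47 for TFIIE, but -0.97 for TBP, -0.72 for TFIIB and -0.21 for TFIIF. The TFIIA value was the highest of any full Ty site of that factor. At the YGRWTy3-1 site the level was lower for these factors, -0.12 for TFIIA and 0.16 for TFIIE. It was -1.01 for TBP, -0.96 for TFIIB and -0.19 for TFIIF there. Both TFIIE sites rose, with slopes of 0.21 and 0.23 (adjusted p = 0.019 and 0.025), from log2 HA/Myc of -0.69 and -0.68 at 10 min to 0.44 and 0.52 at 120 min. They were the only full Ty sites of TFIIE called rising. Neither was called without 10 min (0.06 and 0.07, adjusted p = 0.35 and 0.40) or with linear time (adjusted p = 0.22 and 0.25), and with the loess offset the YILWTy3-1 slope was 0.11 (adjusted p = 0.22) and the YGRWTy3-1 slope 0.23 (adjusted p = 0.041).

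The genes known to control Ty1 in yeast were read in the same fit as a list, 18 in all, namely 7 activators, 6 SAGA subunits and 5 SWI/SNF subunits. A TBP site was assigned to 5 of them, a TFIIA site to 7, a TFIIB site to 10, and TFIIE and TFIIF sites to 11 each. None had a called ratio slope for TBP, TFIIA, TFIIB or TFIIF in edgeR, with 0, 0, 0 and 3 past an unadjusted p of 0.05 and 0, 0, 0 and 2 called by DESeq2. For TFIIE 4 of 11 rose and 1 fell, beside 29.4% rising and 30.9% falling of all TFIIE sites, so the share rising was near that of all sites. Those that rose were SNF2, the ATPase of SWI/SNF (0.24 ± 0.04), SNF6 (0.19 ± 0.06), TEC1, a partner of Ste12 at Ty1 (0.16 ± 0.04), and GCR1 (0.13 ± 0.05), with adjusted p from 0.00025 to 0.0295. SPT7, a scaffold subunit of SAGA, fell by 0.56 ± 0.08.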

How the data were processed

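The deposited values were raw read counts per site. Per the labels and the study's methods, the authors aligned reads to sacCer3 with Bowtie2 2.2.6, called sites with MACS2 2.1.0.20151222 on Myc libraries, merged them and counted reads with bedtools. Here 81 count columns of 5 factors were used, and 10 inputs and the Myc libraries at 0 min other than that of TFIIB were not analysed. File starts were read as 0-based, so printed starts are larger by 1. Levels used a pseudocount of 0.5. Slopes came from edgeR 4.0.16 (R 4.3.3) with TMM scaling, sites with a mean of at least 10 counts, log2(time), the time point as block (6 residual degrees of freedom) and Benjamini-Hochberg adjustment. DESeq2 1.42.0, other scalings, linear time, no block, stricter overlap, single-copy sites, distance filters and leaving out each time point were the alternatives. The fits were tested on simulated data.

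Named sites were, per factor, the full Ty and the solo LTR site with the highest Myc level and the 2 largest called rises and falls with a mean of at least 50 counts whose sign held without any 1 time point, and the 3 full Ty and 3 solo LTR loci with all 5 factors and the highest mean Myc level. Members and lists were chosen with earlier results of these data known, and position bins and comparison classes after seeing the data.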

Additional observations from a re-analysis of the deposited data

Results flagged for a closer look

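The TFIIB Myc library taken at 0 min, before galactose, enters none of the fits. No HA library pairs with it for the ratio, and the Myc fit uses log2(time), which is undefined at 0 min. Full Ty sites held 2.02% of its counts at nuclear sites and solo LTR sites 0.571%. In the 8 later TFIIB Myc libraries the shares were 1.80% to 2.14% and 0.582% to 0.638%, so the value before galactose lay within the range for full Ty sites and just under it for solo LTR sites. It is listed here because this library enters no comparison, and with 1 library the difference was not tested.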

How the results depend on the processing

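Counts below are Ty and LTR sites called. Calls over all sites changed with the setting as well, so these counts alone do not show a change particular to the members. Leaving out each time point in turn gave, for the ratio slope, 1 to 7 rising and 0 to 106 falling for TBP, 0 to 3 and 41 to 177 for TFIIA, 0 to 23 falling for TFIIB, 4 to 5 and 107 to 117 for TFIIE and 0 to 2 and 64 to 141 for TFIIF. For the Myc slope it gave 0 to 1 rising for TBP, 15 to 47 rising and 1 to 2 falling for TFIIB, 112 to 131 and 2 to 5 for TFIIE and 0 to 13 rising for TFIIF. With total counts the ratio fell at 213 TBP, 67 TFIIA, 4 TFIIB and 12 TFIIF sites and rose at 7 TFIIA and 12 TFIIF sites. With the loess offset it fell at 5 TBP and 26 TFIIB sites and rose at 1 TBP, 1 TFIIE and 0 TFIIF sites, and Myc rose at 1 TBP and 1 TFIIF site and fell at 1 TFIIE site. With linear time the ratio fell at 0 TBP, 47 TFIIA, 21 TFIIB and 27 TFIIF sites and rose at 0 TBP and 0 TFIIF sites, and Myc rose at 22 TFIIB sites. DESeq2 called the ratio falling at 81 TBP and 48 TFIIB sites and rising at 1 TFIIA site, and Myc rising at 5 TBP, 4 TFIIA and 45 TFIIF sites and falling at 2 TBP sites. With DESeq2 size factors Myc rose at 1 TBP site and fell at 1 TFIIB site. Without the time block the ratio fell at 1 TBP and 0 TFIIB sites. Without 10 and 25 min, added after seeing the data, 42 TFIIF sites fell and 1 rose.

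Among single-copy sites alone the ratio fell at 0 TBP, 3 TFIIA, 0 TFIIB, 20 TFIIE and 2 TFIIF sites and rose at 3 TFIIE sites, and Myc rose at 2 TFIIB and 17 TFIIE sites. In that order of factors, these sets held 22, 18, 16, 28 and 14 solo LTR sites and 0, 2, 1, 4 and 1 full Ty sites. Of all sites the ratio fell at 1.25%, 9.44%, 0.545%, 30.9% and 17.1%, and it rose at 29.4% for TFIIE. Myc rose at 10.8% of all TFIIB and 30.9% of all TFIIE sites. The full Ty set then held 2 sites for TFIIA and 1 each for TFIIB and TFIIF, so its values describe single sites. Its Myc level was -0.23 for TFIIA and -0.39 for TFIIB, the mean log2 HA/Myc 0.0822 and 0.32, and its 10 min value 0.29, 0.52 and, for TFIIF, 0.14. The solo LTR Myc level was 0.23 for TBP, 0.058 for TFIIA and 0.17 for TFIIB, the mean log2 HA/Myc -0.0014 for TFIIA and -0.0507 for TFIIB, and the 10 min value -0.0784, -0.11 and, for TFIIF, -0.10. With at least 50% of the site inside the element the ratio rose at 1 TBP, 2 TFIIE and 0 TFIIF sites and Myc fell at 0 TFIIB and 0 TFIIE sites, the solo LTR Myc level was 0.0148 for TBP and -0.23 for TFIIA, and solo LTR log2 HA/Myc at 10 min was 0.16 for TBP, 0.84 for TFIIA (0.54 over all times) and 1.33 for TFIIB. Over 1 kb from a tRNA gene the TFIIB full Ty Myc level was -2.52 and its 10 min log2 HA/Myc 2.43, the TFIIB solo LTR level 0.0666, and solo LTR log2 HA/Myc at 10 min 0.0045 for TFIIA, 0.38 for TFIIB and 0.43 for TFIIF. Without members at a gene start the TFIIB full Ty level was -2.15 and the solo LTR 10 min value 0.39.

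Signs turned at 6 named sites. With the loess offset the TBP ratio slope was -0.11 by SNR52 and -0.16 by RPR1 (HA slope -0.20), and the TFIIE ratio slope was -0.0371 on chromosome XV and -0.0473 on chromosome XII (Myc slope 0.074). With total counts the TFIIF ratio and HA slopes were 0.0801 and 0.13 by YGRWTy1-1 and 0.20 and 0.21 at YJRWTy1-2. The cause was not tested, other than that single-copy and stricter overlap sets hold fewer sites. The HA and Myc libraries of a time point were paired in the ratio fit through the time block. Repeated sequence, possible differences of W303 from the reference and the absence of replicate libraries limit every value.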
